A study of Homo sapiens with 57 samples.

Results

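The integrin and focal adhesion kinase genes of the panel were examined across the wells of HK-2 cells treated with 3 herb extracts. They were chosen by their Entrez gene identifiers, 3685 for ITGAV (integrin subunit alpha V), 3688 for ITGB1 (integrin subunit beta 1), 5747 for PTK2 (focal adhesion kinase) and 2185 for PTK2B (proline-rich tyrosine kinase, the close relative of PTK2), which makes 4 of the 412 genes measured. HK-2 is an immortalized line of human proximal tubule epithelial cells. Ethanol extracts of Roucongrong, Yinyanghuo and Gusuibu were each applied at 100 μg/mL to 3 wells, seeded with 3000 cells, for 24 h. A control group of 16 wells with 0.5% DMSO belonged to each herb, so that 57 wells fell into 3 sets. All wells held the same cell line, and no control was shared between herbs. RASL-seq was used to measure transcripts: 2 probes that lie side by side on an mRNA are ligated, and the product is amplified and counted by sequencing. The labels say only that these are separate wells, so the p-values measure the spread between wells, which may be technical.

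Integrins are receptors made of an alpha and a beta subunit that bind the extracellular matrix outside the cell and gather a complex of adaptor proteins inside it. The alpha V subunit pairs with several beta subunits, beta 1 among them, and its heterodimers bind matrix proteins such as fibronectin and vitronectin, while beta 1 pairs with most of the alpha subunits of epithelial cells. PTK2 is recruited to clustered integrins, where it phosphorylates itself and opens docking sites for SRC family kinases, and PTK2B is a related kinase that also responds to calcium. In the kidney, tubule cells hold on to their basement membrane through beta 1 integrins.

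The sequences upstream of the integrin genes and of FN1 (fibronectin, a ligand of both subunits and the gene most like ITGAV below) are shown because ITGAV and FN1 varied together between wells. Each is the 250 bases before the annotated gene start, from RefSeq on GRCh38.p14, read 5′ to 3′ on the strand of the gene: chr2:186589806-186590055 on the plus strand for ITGAV, chr10:32958231-32958480 on the minus strand for ITGB1 and chr2:215436069-215436318 on the minus strand for FN1. Capitals mark the GC box, searched as GGGCGG on both strands, with overlapping matches counted. Each window ends at the base before that start.
ITGAV: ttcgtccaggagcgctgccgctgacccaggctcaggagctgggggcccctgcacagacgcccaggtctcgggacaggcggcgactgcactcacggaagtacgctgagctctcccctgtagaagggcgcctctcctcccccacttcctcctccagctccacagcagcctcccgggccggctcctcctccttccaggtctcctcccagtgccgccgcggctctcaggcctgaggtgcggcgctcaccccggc
ITGB1: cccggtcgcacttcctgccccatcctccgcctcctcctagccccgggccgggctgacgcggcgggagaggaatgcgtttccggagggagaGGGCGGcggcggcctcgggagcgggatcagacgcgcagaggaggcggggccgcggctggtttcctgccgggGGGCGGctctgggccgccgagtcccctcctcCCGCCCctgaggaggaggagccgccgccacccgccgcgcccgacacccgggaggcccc
FN1: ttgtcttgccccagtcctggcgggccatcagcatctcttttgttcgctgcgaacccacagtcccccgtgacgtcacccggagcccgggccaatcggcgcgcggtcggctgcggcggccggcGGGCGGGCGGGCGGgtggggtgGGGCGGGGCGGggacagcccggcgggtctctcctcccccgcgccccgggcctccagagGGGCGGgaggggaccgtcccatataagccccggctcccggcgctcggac
The ITGAV window held no GC box, ITGB1 held 3 and FN1 held 6, where 42.6% of the 35116 promoters of the same length held at least 1. The CCAAT box (CCAAT, either strand) was found once in the FN1 window and in neither of the integrin windows, against 32% of all promoters, and none of them held TATAAA, which 10.7% of all promoters held. The windows were rich in G and C, at 70.8% in ITGAV, 78.4% in ITGB1 and 76.4% in FN1. These matches describe the letters of the windows only. No sequence is shown for PTK2 and PTK2B.

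Total counts per well ranged from 13581 to 75969, and the shallowest well was Yinyanghuo well 2. Levels are given as CPM, reads scaled to a common library size by TMM. Before TMM scaling, the floor of 3 reads came to 39.5 CPM in the deepest well and 221 CPM in the shallowest. With TMM, 3 reads were 204 CPM in the shallowest well. This floor covers counting error only, since molecular identifiers were not used. All 4 genes passed any filter on low values used here: in the DMSO wells, ITGAV had 39 to 188 reads and ITGB1 95 to 442. The label of the cells could not be checked by markers, because none of the 7 proximal tubule and none of the 5 epithelial markers listed is on the panel. Of the markers of other cells, ITGB2 (leukocytes) had 3 to 22 reads in the DMSO wells, KDR (endothelium) 1 to 29 and CDH5 (endothelium) 0 to 6, and no fibroblast marker was on the panel.

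Each herb was compared with the DMSO wells of its set by edgeR's quasi-likelihood test over all genes with a nonzero total, and a gene was called at an unadjusted p under 0.05 with a fold change above 1.5 or below 0.67. With Yinyanghuo, 2 of the 4 genes were called, ITGAV and PTK2, both lower, where 15% of the 400 genes tested were called in either direction and 7.25% lower. With Gusuibu, 1 of the 4 was called, PTK2B, which was higher, where 9.45% of 402 genes were called and 7.71% higher. With Roucongrong none of the 4 was called, where 10.2% of 402 genes were. The members were chosen with earlier results of these data known, so these counts are a description and not a test of the group. At an adjusted p under 0.05 in edgeR, the members past the threshold were ITGAV with Yinyanghuo, where 7.5% of the genes tested passed, and ITGB1 and PTK2B with Gusuibu, where 5.22% did. None passed with Roucongrong, where 2.99% of the genes did, and the unadjusted p was under 0.05 for 0 of the 4 there. In the lysate of a whole well, fewer cells and less RNA per cell cannot be told apart, and only changes relative to the rest of the panel are measured.

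**Figure D1:**
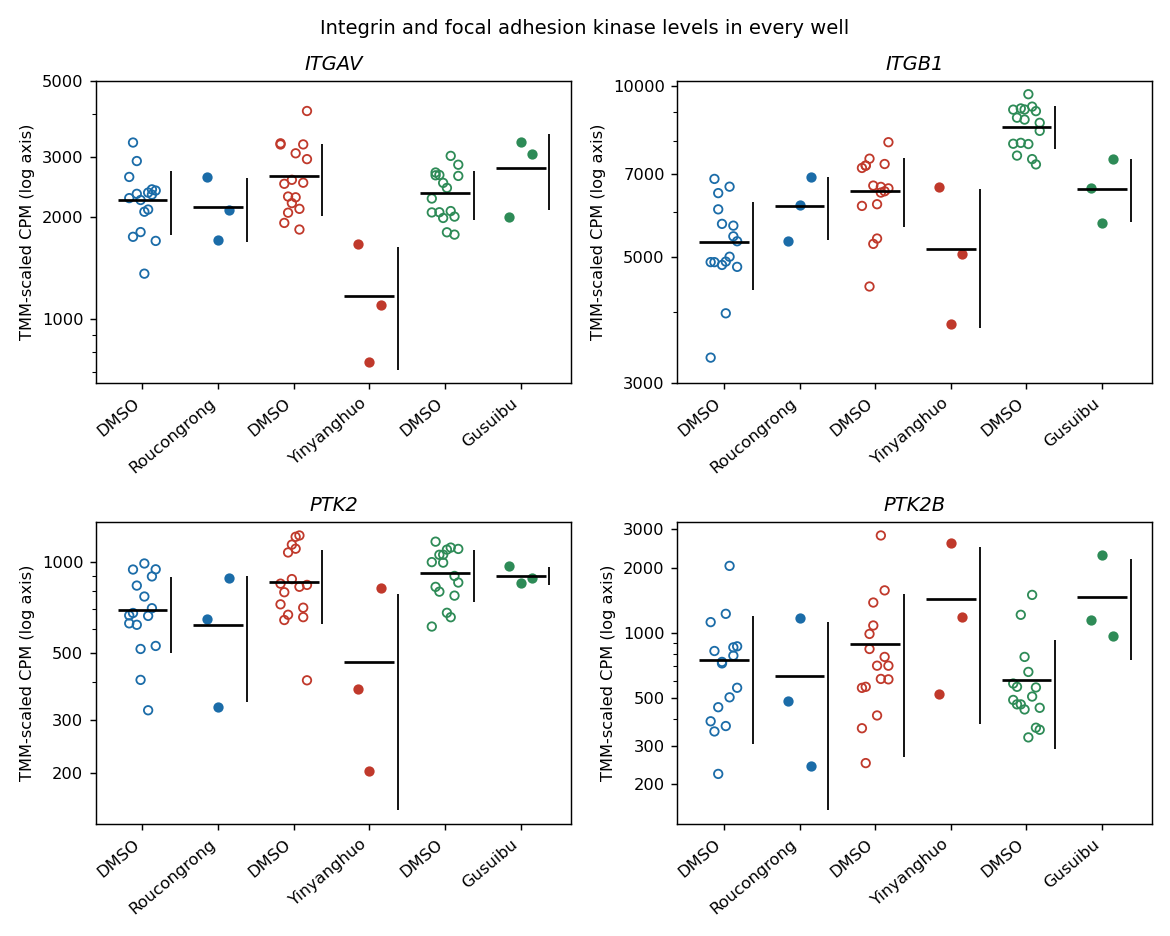
Level of ITGAV, ITGB1, PTK2 and PTK2B in each of the 57 wells, as TMM-scaled CPM on a log axis, for the 3 herbs (filled, 3 wells each) and the DMSO wells of each set (open, 16 wells each). Horizontal lines are means and vertical lines 1 SD to each side; the 3 Yinyanghuo wells of ITGAV lie below every DMSO well of their set.

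ITGAV fell with Yinyanghuo, in all 3 wells. The 3 Yinyanghuo wells had 1662, 749 and 1101 CPM, from 35, 11 and 39 reads. The 16 DMSO wells of the set ran from 1835 to 4084 CPM with a median of 2508. The groups did not overlap, as was the case for 2.75% of the genes tested in this direction. The log2 fold change was -1.18 (SE 0.24, 95% interval -1.68 to -0.68), a 2.26-fold lower level, with an adjusted p of 0.00156 in edgeR after Benjamini-Hochberg adjustment over all genes. The two-sided exact permutation test of mean log2 CPM over all 969 choices of 3 of the 19 wells gave p = 0.00103, the smallest it allows. Without any one Yinyanghuo well the log2 fold change lay between -1.48 and -0.996, and the edgeR adjusted p was at most 0.0231.

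The level of ITGAV moved with depth among the control wells of this set. The treated wells had totals of 21916, 13581 and 35307 reads, against 19690 to 40863 in the DMSO wells. In the 16 DMSO wells of the Yinyanghuo set, log2 CPM of ITGAV and log2 total count had r = 0.64 (permutation p = 0.0070, 0.0278 after Benjamini-Hochberg adjustment over 12 such relations) and rho = 0.56 (permutation p = 0.0249, adjusted 0.0881), and r was 0.47 without the 2 wells whose totals were farthest from the median. With log2 total count as a covariate, the log2 fold change of ITGAV was -1.01 (edgeR adjusted p = 0.00537).

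With the other herbs ITGAV did not pass the test. The Roucongrong wells had 2621, 1709 and 2099 CPM, against 1362 to 3301 CPM (median 2295) in their DMSO wells, and lay inside that range. Their log2 fold change was -0.09 (SE 0.19, 95% interval -0.48 to 0.30, edgeR adjusted p = 0.835). The Gusuibu wells had 1992, 3313 and 3059 CPM, against 1773 to 3017 CPM (median 2346), so that 2 of the 3 lay above the highest DMSO well and well 1, the shallowest of the 3, lay below the median. They differed from the controls by a log2 fold change of 0.27 (SE 0.16, 95% interval -0.06 to 0.60, edgeR adjusted p = 0.422).

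The response of ITGAV to Yinyanghuo differed from its response to each of the other herbs. The difference was tested as an interaction term, with all 57 wells fitted together in edgeR. The Yinyanghuo change was 1.08 log2 units below that of Roucongrong (difference -1.08, SE 0.29, adjusted p = 0.0156) and 1.43 below that of Gusuibu (difference -1.43, SE 0.29, adjusted p = 0.000415), where 6.8% and 5.58% of the 412 genes differed by these contrasts. The difference from Roucongrong ranged from -1.38 to -0.89 without single treated wells, and its edgeR adjusted p rose to 0.0834 without Roucongrong well 1, 0.107 without Yinyanghuo well 2 and 0.0647 without Yinyanghuo well 3. The difference from Gusuibu kept an edgeR adjusted p of at most 0.00815 in the same fits. In the order of group means, only the step from Roucongrong down to Yinyanghuo, the lowest group, was past the threshold (log2 difference 0.85, edgeR adjusted p = 0.0421). The 5 upper groups did not differ from their neighbours beyond their spread. Compared directly, ITGAV was 0.23 log2 units higher in the Yinyanghuo DMSO wells than in the Roucongrong DMSO wells (edgeR p = 0.0270, adjusted 0.105). In 3 alternative fits with other scalings or filters this was 0.29 to 0.33 (edgeR adjusted p = 0.00657 to 0.0292). The other pairs of DMSO sets did not pass in any of these fits.

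ITGB1 passed the adjusted threshold with Gusuibu, where it was lower by a small amount. The Gusuibu wells had 6604, 5750 and 7431 CPM, from 116, 236 and 362 reads. Their DMSO wells had 7280 to 9677 CPM (median 8674), and 2 of the 3 Gusuibu wells lay below all of them while well 3 lay above 1 of them. In edgeR the log2 fold change was -0.38 (SE 0.11, 95% interval -0.60 to -0.17, edgeR adjusted p = 0.0282), a 1.30-fold lower level, which did not reach the fold criterion, and 3.48% of the genes tested fell at this adjusted threshold. The two-sided exact permutation test gave p = 0.00206. The edgeR adjusted p was 0.0955 without Gusuibu well 1 and 0.285 without well 2, with log2 fold changes of -0.35 and -0.31. Among the DMSO wells of this set, log2 CPM of ITGB1 and log2 total count had r = 0.68 (permutation p = 0.0032, adjusted 0.0192) and rho = 0.58 (permutation p = 0.0205, adjusted 0.0881), and r was 0.55 without the 2 wells farthest from the median total. With log2 total count as a covariate the log2 fold change was -0.35 (edgeR adjusted p = 0.0236).

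The control level of ITGB1 also differed between all 3 pairs of sets. The DMSO wells of the Gusuibu set averaged 8484 ± 729 CPM (SD, n = 16), those of the Yinyanghuo set 6549 ± 912 and those of the Roucongrong set 5307 ± 940. The differences were 0.68 log2 units between Gusuibu and Roucongrong (edgeR adjusted p = 3.51e-11), 0.37 between Gusuibu and Yinyanghuo (adjusted p = 0.00025) and 0.30 between Yinyanghuo and Roucongrong (adjusted p = 0.00124), where 22.6%, 5.83% and 21.4% of the 412 genes differed. The mean of the Gusuibu wells, 6595 ± 841 CPM (SD, n = 3), thus lay close to the DMSO mean of the Yinyanghuo set. Set against the controls of the other herbs, the log2 fold change of ITGB1 with Gusuibu was 0.16 (edgeR adjusted p = 0.758) and had the opposite sign.

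With Yinyanghuo and Roucongrong ITGB1 was not called. The Yinyanghuo wells had 6647, 3811 and 5054 CPM against 4438 to 7966 CPM (median 6626), and the lowest of them, well 2 with 56 reads, lay below all DMSO wells. A log2 fold change of -0.36 was estimated (SE 0.15, 95% interval -0.67 to -0.05, edgeR p = 0.0265, adjusted 0.177). In the DMSO wells of this set, log2 CPM of ITGB1 and log2 total count had r = 0.70 (permutation p = 0.0023, adjusted 0.0192) and rho = 0.64 (permutation p = 0.00949, adjusted 0.0881), and r was 0.48 without the 2 wells farthest from the median total. The log2 fold change was -0.23 with log2 total count as a covariate (edgeR adjusted p = 0.416). The Roucongrong wells had 5339, 6173 and 6906 CPM against 3327 to 6864 CPM (median 5169), all above the DMSO median. Their log2 fold change was 0.20 (SE 0.15, 95% interval -0.11 to 0.50, edgeR adjusted p = 0.537). The interactions for ITGB1 were near the threshold or short of it: the difference was -0.54 (SE 0.20, edgeR adjusted p = 0.0918) between Yinyanghuo and Roucongrong, -0.57 (SE 0.19, adjusted p = 0.0591) between Gusuibu and Roucongrong, and 0.03 (SE 0.20, 95% interval -0.36 to 0.42) between Yinyanghuo and Gusuibu, where 6.55% of genes differed between Gusuibu and Roucongrong. Among genes with a mean count of 5 or more, the difference between Gusuibu and Roucongrong was -0.55 (edgeR adjusted p = 0.0337), and without Yinyanghuo well 1 that between Yinyanghuo and Roucongrong was -0.76 (adjusted p = 0.0159), so that both passed there. No neighbours in the order of the 6 group means, from the Gusuibu DMSO wells down to Yinyanghuo, differed past the adjusted threshold in that model.

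PTK2 was lower in all 3 Yinyanghuo wells than the median of their controls, on few reads. The wells had 380, 204 and 819 CPM, from 8, 3 and 29 reads. The DMSO wells had 406 to 1223 CPM (median 833), from 16 to 43 reads. Wells 1 and 2 lay below every DMSO well, and well 2 stood at the floor of 3 counts, while well 3 was level with the controls. The log2 fold change was -0.75 (SE 0.33, 95% interval -1.42 to -0.08, edgeR p = 0.0299, adjusted 0.184), so that PTK2 met the unadjusted criterion and not the adjusted one. The two-sided exact permutation test gave p = 0.0134. Without well 1 the log2 fold change was -0.58 (edgeR p = 0.137, adjusted 0.430) and without well 2 it was -0.48 (p = 0.171, adjusted 0.548), and neither was called, whereas without well 3 it was -1.49 (adjusted p = 0.0299).

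PTK2 was not called with Roucongrong or Gusuibu. The Roucongrong wells had 647, 332 and 882 CPM, from 20, 13 and 29 reads, within the 323 to 988 CPM (median 672) of their DMSO wells. Their log2 fold change was -0.20 (SE 0.29, 95% interval -0.79 to 0.39, edgeR adjusted p = 0.758). The Gusuibu wells had 968, 853 and 883 CPM, from 17, 35 and 43 reads, within the 611 to 1167 CPM (median 947) of theirs. Here the log2 fold change was -0.06 (SE 0.20, 95% interval -0.46 to 0.34, edgeR adjusted p = 0.892). The change with Yinyanghuo differed by -0.53 (SE 0.40, edgeR adjusted p = 0.522) from that with Roucongrong and by -0.67 (SE 0.39, adjusted p = 0.468) from that with Gusuibu, so a difference of PTK2 between the herbs was not detectable here. Among the controls, PTK2 was higher in the Gusuibu set than in the Roucongrong set (log2 difference 0.40, edgeR adjusted p = 0.0208). Herb and set cannot be told apart in the order of its group means, which ran from the Gusuibu DMSO wells down to Yinyanghuo with no neighbours past the adjusted threshold.

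PTK2B rose with Gusuibu. The wells had 1139, 2290 and 965 CPM, from 20, 94 and 47 reads. The DMSO wells had 328 to 1495 CPM (median 498), from 8 to 44 reads. All 3 Gusuibu wells lay above the DMSO median, and well 2 lay above every DMSO well. The highest DMSO well, at 1495 CPM, lay above Gusuibu wells 1 and 3. The log2 fold change was 1.30 (SE 0.31, 95% interval 0.67 to 1.94, edgeR adjusted p = 0.0135), a 2.46-fold higher level. The two-sided exact permutation test gave p = 0.00722. Without Gusuibu well 2 the log2 fold change was 0.74 (edgeR p = 0.0577, adjusted 0.423) and the gene was not called, and without well 1 or well 3 it was 1.45 and 1.55 with an adjusted p of 0.0332 and 0.0109.

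KDR, one of the 2 endothelial markers of 4 listed that are on the panel, was also called higher with Gusuibu. It had 4, 40 and 15 reads against 2 to 21 in the controls, with a log2 fold change of 1.34 (SE 0.47, edgeR p = 0.00712, adjusted 0.101), and well 2 was the highest as it was for PTK2B. CDH5, the other marker, had 2, 1 and 0 reads. The summed level of both was 308 to 999 CPM in the Gusuibu wells and 43.8 to 839 CPM in their DMSO wells, and its part in the result for PTK2B was not tested.

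PTK2B was the most variable member among wells of one kind. In the Yinyanghuo set the DMSO wells ran from 250 to 2813 CPM (median 704), and in the Roucongrong set from 223 to 2035 CPM (median 727). The biological coefficient of variation that edgeR estimated among the DMSO wells was 0.457 for PTK2B, the 17th highest of 215 genes, against 0.190 for PTK2, 0.181 for ITGAV and 0.134 for ITGB1. The Yinyanghuo wells had 522, 2586 and 1186 CPM, from 11, 38 and 42 reads, within the range of their controls. The log2 fold change was 0.64 (SE 0.48, 95% interval -0.34 to 1.62, edgeR adjusted p = 0.503), and it was -0.02 without well 2. The Roucongrong wells had 485, 1173 and 243 CPM, from 15, 46 and 8 reads, also within the range. Their log2 fold change was -0.18 (SE 0.47, 95% interval -1.14 to 0.77, edgeR adjusted p = 0.855).

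The difference of PTK2B between herbs was not past the adjusted threshold. It was 1.48 (SE 0.64, 95% interval 0.20 to 2.76, edgeR adjusted p = 0.161) between Gusuibu and Roucongrong and -0.66 (SE 0.63, adjusted p = 0.717) between Yinyanghuo and Gusuibu. No pair of DMSO sets differed in PTK2B past the adjusted threshold, and neither did any neighbours in the order of its 6 group means, from Gusuibu down to Roucongrong. PTK2 and PTK2B are paralogs. Probe sequences were not used here, and whether reads of one could be counted for the other was not examined.

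**Figure D2:**
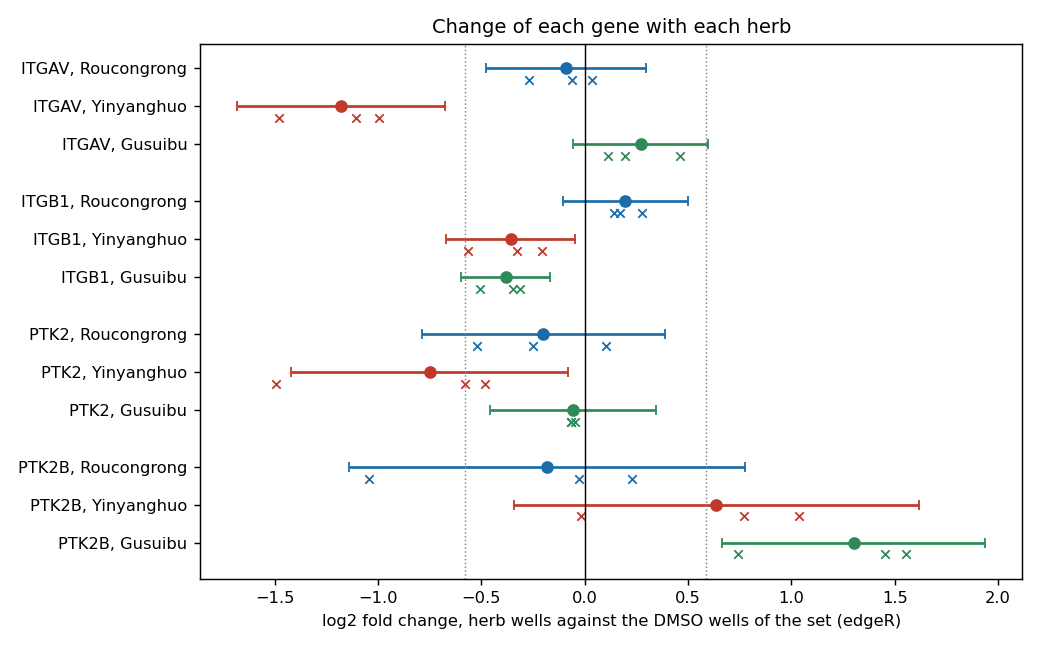
Log2 fold change of each gene with each herb against the 16 DMSO wells of its set (edgeR, filled points, with 95% intervals), and the value without each treated well in turn (crosses). Dotted lines mark the fold change criterion; ITGAV with Yinyanghuo is the only gene and herb for which the interval and all 3 crosses lie below it, and PTK2B with Gusuibu is the only one for which they all lie above the upper line.

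The balance of the subunits within a well does not depend on the scaling of the library. This ratio was chosen after the values had been seen and is given as a description. The ratio of ITGAV to ITGB1 reads was 0.25, 0.196 and 0.218 in the Yinyanghuo wells, against 0.265 to 0.529 (median 0.435) in their DMSO wells. All 3 lay below every control, and the mean log2 ratio was 0.85 lower (difference -0.85). In the Gusuibu wells it was 0.302, 0.576 and 0.412, against 0.196 to 0.357 (median 0.283). All 3 lay above the DMSO median and 2 of them above every control, with a mean log2 ratio 0.60 higher. In the Roucongrong wells it was 0.491, 0.277 and 0.304, against 0.319 to 0.682 (median 0.420), with a difference of -0.28, which was -0.54 without well 1, -0.12 without well 2 and -0.19 without well 3.

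The ratio of PTK2B to PTK2 reads was described in the same way. It was 1.18, 2.69 and 1.09 in the Gusuibu wells, against 0.40 to 2.28 (median 0.534) in their DMSO wells, and 14 of the 16 DMSO wells lay below all of them. It was 1.38, 12.7 and 1.45 in the Yinyanghuo wells, against 0.375 to 3.40 (median 0.811), and the second well rested on 38 reads of PTK2B and 3 of PTK2. The difference of mean log2 ratios was 1.30 with Gusuibu, or 0.88 without well 2, and 1.70 with Yinyanghuo, or 0.65 without well 2. With Roucongrong the ratio was 0.75, 3.54 and 0.276, against 0.267 to 6.30, and spanned most of that range.

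**Figure D3:**
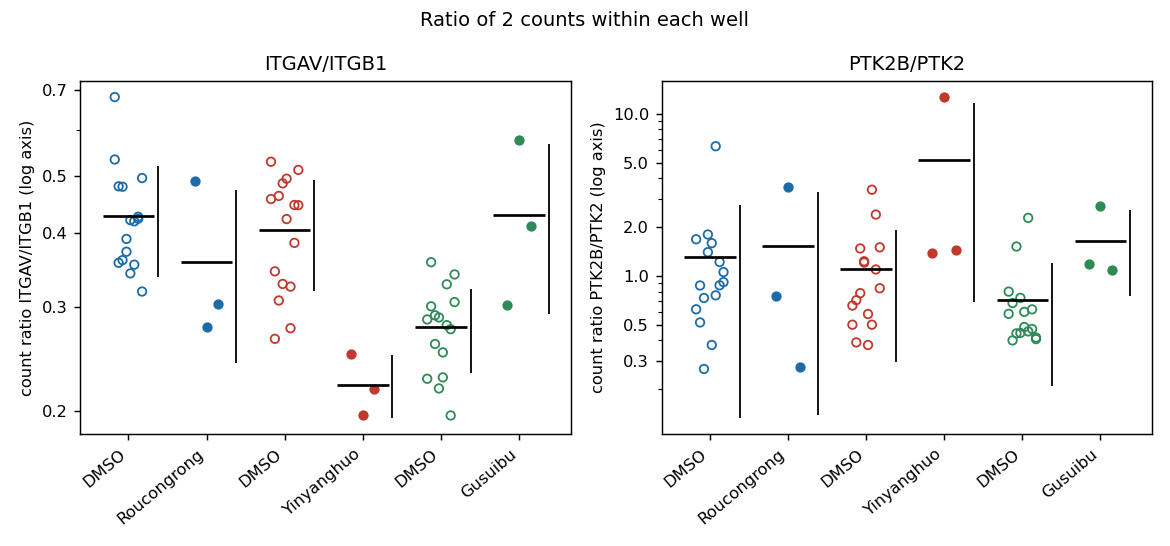
Ratio of ITGAV to ITGB1 reads (left) and of PTK2B to PTK2 reads (right) within each well, on log axes, with the herb wells filled and the DMSO wells of the same set open. Horizontal lines are means and vertical lines 1 SD to each side. In the right panel the lower end is cut where the SD exceeds the mean (Roucongrong, its DMSO wells and Yinyanghuo). The ITGAV/ITGB1 ratio of the 3 Yinyanghuo wells, 0.196 to 0.25, lies below that of every DMSO well of their set.

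The members were set beside the rest of the integrin and focal adhesion pathway, from a list of 123 genes in 7 roles of which 53, the members included, are on the panel. With Yinyanghuo 14 of the 53 were called (26.4%), 12 lower and 2 higher, against 15% of all genes tested, and the median log2 fold change was -0.29 against -0.13 over all genes tested. Without the members, 12 of 49 were called. At an adjusted p under 0.05, 11 were lower and none was higher, where 5% of the genes tested were lower. Without Yinyanghuo well 2, 9 of the 53 were called. RLE scaling in place of TMM moved the median of the 214 genes averaging at least 5 reads from -0.08 to 0.02 and the share of higher calls over the panel from 51.7% to 63.5%, with 14 pathway genes called under both scalings.

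Of the 7 matrix ligand genes of the list, 4 were called lower with Yinyanghuo and none higher, and 2 of the 3 membrane partners were called lower. Over the panel, 7.25% of the 400 genes tested were called lower. The list was made with earlier results of these data known, so these counts are a description. FN1, fibronectin, had 417, 193 and 616 reads where the DMSO median was 1302.5, and its log2 fold change was -1.48 (edgeR adjusted p = 5.14e-06). VCAN, the matrix proteoglycan versican, changed by -1.71 and SPP1, osteopontin, by -0.63, with edgeR adjusted p of 0.000294 and 0.0305. LAMC1, the laminin gamma 1 chain, changed by -0.68 with an unadjusted p of 0.0332 in edgeR. Of the ligands not called, LAMB1, the laminin beta 1 chain, which is named after its values were seen, went the other way, with no treated well below the DMSO median and a log2 fold change of 0.34 (edgeR p = 0.0368, adjusted 0.201). CAV1, caveolin 1, changed by -0.95 and SDC2, the heparan sulfate proteoglycan syndecan 2, by -0.72, and both passed the adjusted threshold.

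Inside the cell, the adaptor NCK1 changed by -0.69 and WASF1, which drives actin branching, also by -0.69, with edgeR adjusted p of 0.0130 and 0.0309. The small GTPases RHOA and CDC42 were lower by less than the fold criterion, at -0.43 and -0.37. PAK3, a kinase downstream of CDC42 and RAC1, had 2, 1 and 2 reads against a DMSO median of 5. RASA1, a RAS GTPase activating protein, had 0 reads in all 3 Yinyanghuo wells against a DMSO median of 4.5, and no fold change is given. The 2 higher calls were ROCK1, a kinase downstream of RHOA with 2, 9 and 11 reads against a median of 2, and ITGB2. None of the 13 PI3K and MAPK genes of the list was called, where 15% of the 400 genes tested were.

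With Gusuibu 5 of 52 pathway genes tested were called (9.62%), near the 9.45% of the panel, and all were higher. Beside PTK2B they were CAV2, caveolin 2 (log2 fold change 1.13, edgeR adjusted p = 0.0187), VCAN (0.75, adjusted p = 0.0298), PIK3R1, a regulatory subunit of PI3K (0.74, adjusted p = 0.244), and SHC2, an adaptor with 1, 3 and 7 reads. At an adjusted p under 0.05, 4 genes were lower, ITGB1, RHOA (-0.47), SPP1 (-0.50) and SDC2 (-0.44), none of them past the fold criterion. With RLE in place of TMM, the share of higher calls over the panel went from 81.6% to 91.9%. With Roucongrong 3 of the 53 were called (5.66%, against 10.2% of the panel), VCAN lower (-0.99, edgeR adjusted p = 0.0281) and HRAS and PIK3R2 higher at 1 to 27 and 0 to 5 reads. VCAN was thus lower with Roucongrong and Yinyanghuo and higher with Gusuibu.

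**Figure D4:**
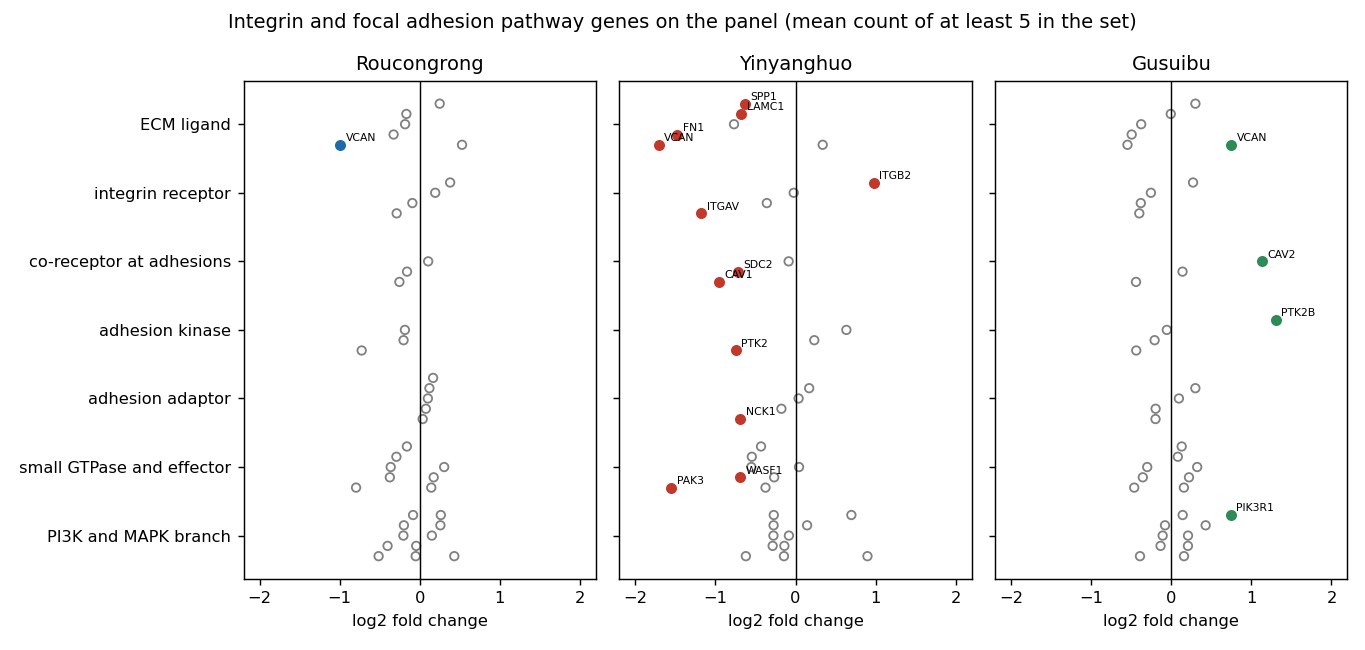
Log2 fold change with each herb (horizontal axis) of the pathway genes that averaged at least 5 reads in the set, by role (rows), with called genes filled and named. Of 39 genes plotted with Yinyanghuo 12 are called, 11 of them lower, while 1 of 40 is called with Roucongrong and 4 of 39 with Gusuibu.

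Of 19 integrin subunits listed, 6 are on the panel. Beside the members these are ITGB3, a partner of alpha V, and the leukocyte subunits ITGB2, ITGAM and ITGAX. ITGB3 had 30, 19 and 34 reads with Yinyanghuo against 19 to 74 in the controls, and its log2 fold change was -0.02 (SE 0.24, 95% interval -0.52 to 0.48). Its changes with Roucongrong and Gusuibu were -0.29 and -0.26, and neither passed the test. ITGB2 had 18, 2 and 25 reads with Yinyanghuo against 3 to 22, with a log2 fold change of 0.98 (SE 0.43, edgeR p = 0.0323, adjusted 0.187), carried by wells 1 and 3. As the leukocyte marker of the panel, ITGB2 thus moved with the herb that moved ITGAV, and its part in that result was not tested. With Roucongrong ITGB2 had 17, 1 and 19 reads and a log2 fold change of 0.38, and with Gusuibu 2, 16 and 9 reads and -0.40. ITGAM and ITGAX had at most 3 reads in any well.

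The panel genes whose level followed each member most closely were taken over the 48 DMSO wells, where no herb was present, by Pearson's r of log2 CPM centred within each set, among 216 genes averaging at least 5 reads. Here r is given as a description. For ITGAV they included FN1 (r = 0.62) and EGFR (0.48). With Yinyanghuo FN1 was called lower as ITGAV was (-1.48), and EGFR changed by -0.57 (edgeR adjusted p = 0.0781). With Gusuibu their changes were 0.30 and 0.38, and with Roucongrong EGFR was called lower (-0.59, edgeR p = 0.00201, adjusted 0.0538).

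For ITGB1 the closest genes were YWHAZ (r = 0.72), YWHAE (0.68), both 14-3-3 proteins, and VIM, vimentin (0.67). With Gusuibu, YWHAE and VIM were lower by amounts close to ITGB1, at -0.36 and -0.40 (edgeR adjusted p = 0.0116 and 0.0187), and YWHAZ changed by -0.14. For PTK2 the values were lower, 0.38 for BAD, the highest, and 0.33 for CTNNB1. BAD, a promoter of apoptosis, was called higher with Yinyanghuo (1.13, edgeR adjusted p = 0.0140), opposite in sign to PTK2.

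PTK2B had the closest companions of all members, JAK2 (r = 0.82), PIM1 (0.81) and GNGT2 (0.81). JAK2 is a cytokine receptor kinase, PIM1 a serine/threonine kinase and GNGT2 a gamma subunit of G proteins. All 3 were called higher with Gusuibu, by 0.63, 1.40 and 1.08 on the log2 scale (edgeR adjusted p = 0.202, 0.0262 and 0.0830). Over the panel, 7.71% of the 402 genes tested were called higher. The 3 genes were picked for following PTK2B, so their calls are not separate from its own. In each of them Gusuibu well 2 had the most reads, 249, 65 and 111, as it did for PTK2B with 94. None of the 3 was called with Yinyanghuo or Roucongrong, where 15% and 10.2% of the genes tested were.

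**Figure D5:**
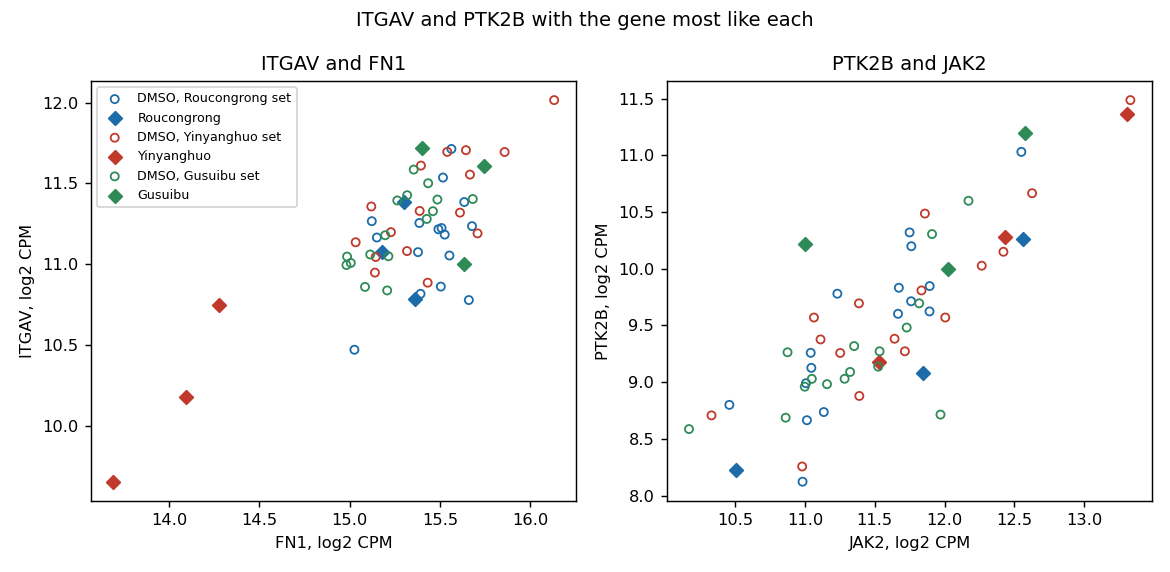
Log2 CPM of ITGAV against FN1 (left) and of PTK2B against JAK2 (right) in the 57 wells, with DMSO wells as open circles and herb wells as filled diamonds, coloured by set. The 3 Yinyanghuo wells stand apart from all other wells in the left panel, low on both axes, while in the right panel the herb wells overlap the range of the DMSO wells.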

How the data were processed

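RASL-seq counts of 412 genes in 57 wells were used. Reads with more than 3 base mismatches were removed and the authors deposited raw counts per gene and well, without normalization. The submitters' processing notes name Bowtie2 2.2.4 and DESeq2 1.22.1, and a genome build is not given in the sources used here. Entrez identifiers of all 412 genes matched a RefSeq symbol.

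Each herb was fitted with its own DMSO wells in edgeR 4.0.16 (R 4.3.3, TMM, quasi-likelihood), on all genes with a nonzero total, and p-values were adjusted by Benjamini-Hochberg over them. Interactions and DMSO sets were fitted over all sets. CPM printed, permutation tests (log2 CPM, prior count 2) and correlations (100000 permutations) used TMM over all 57 wells. DESeq2 1.42.0 was an alternative, with other scalings, filters, controls and wells left out. No well was left out, and no 2 wells were within sampling noise of each other (smallest chi-squared per degree of freedom 1.69).

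Named genes were the members, pathway genes called or with an adjusted p under 0.05, ITGB2 and FN1, the 3 genes most like each member and the cell type markers; some genes that this rule names are not reported here. ITGB3, ITGAM and ITGAX were named as the other integrins of the panel after their values had been seen. Members and lists were chosen with earlier results of these data known. Of the marker lists, 0 of 7 proximal tubule, 0 of 5 epithelial, 1 of 4 leukocyte, 2 of 4 endothelial and 0 of 4 fibroblast genes are on the panel. Figures were drawn with matplotlib 3.10.9.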

Additional observations from a re-analysis of the deposited data

Results flagged for a closer look

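The change of ITGAV with Yinyanghuo was singled out because it differed from the change with each of the other herbs in a test of the difference itself. The interaction was -1.08 log2 units against Roucongrong (edgeR adjusted p = 0.0156) and -1.43 against Gusuibu (adjusted p = 0.000415). Each herb was compared with its own DMSO wells, and each herb was present in its own set only. A response that depends on the set therefore cannot be told apart from one that depends on the herb. The edgeR adjusted p against Roucongrong rose as high as 0.107 when single treated wells were left out.

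The ratio of ITGAV to ITGB1 reads within a well was singled out because every Yinyanghuo well lay below the DMSO median of its set and every Gusuibu well above that of its own. The mean log2 ratio differed from the DMSO wells by -0.85 with Yinyanghuo and by 0.60 with Gusuibu. The DMSO median of the ratio was itself lower in the Gusuibu set, at 0.283, against 0.435 in the Yinyanghuo set and 0.420 in the Roucongrong set. The difference between these herbs was not tested, and the ratio was chosen after the values had been seen. Without Gusuibu well 2 the Gusuibu value was 0.37.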

How the results depend on the processing

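Over the 12 combinations of member and herb, 348 alternative fits were compared with the values in the report, and 330 had the same direction and the same side of the call. ITGAV with Yinyanghuo was called in all 10 alternatives that kept every treated well, at -1.22 to -0.98, and PTK2B with Gusuibu likewise. DESeq2's Wald test gave 26 genes called with Roucongrong and 21 with Gusuibu, and -0.68 for PTK2 with Yinyanghuo, which left 1 of the members called. A mean count of at least 5 gave 21 and 19 genes with these herbs and filterByExpr 19 and 20, with 1 pathway gene each for Roucongrong. Fewer genes were tested under these filters. Fitting all 57 wells together gave 24 genes and 3 pathway genes with Gusuibu, and PTK2B there had an edgeR adjusted p of 0.104. Scaling by total count alone turned PTK2 with Gusuibu to 0.018 and the difference of the ITGB1 effect between Yinyanghuo and Gusuibu to -0.048. Against the controls of the other herbs, ITGB1 with Roucongrong was -0.33, ITGB1 with Gusuibu 0.16, PTK2 with Gusuibu 0.21 and PTK2B with Yinyanghuo 1.02, the last called. With log2 total count as a covariate, an alternative chosen after seeing the data, no member gained or lost a call. Where not stated, the cause was not tested.

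The labels link a herb well to the DMSO well of the same number by the set and that number only. A correlation over 0.1 was found in 3 of 9 such pairs, and 0 of 9 herb wells correlated best with their own number. These 9 correlations ran from -0.40 to 0.37, too few to decide whether the number matters. With the well number as a replicate block, which leaves few degrees of freedom, ITGAV with Roucongrong was 0.0026, PTK2 with Gusuibu 0.041, PTK2 with Yinyanghuo -0.91 (not called) and PTK2B with Yinyanghuo 1.36 (called). The block gave 26, 37 and 22 genes called with Roucongrong, Yinyanghuo and Gusuibu, and 9 and 3 pathway genes with the last 2. The other members kept their calls under it, although the edgeR adjusted p was 0.271 for ITGAV with Yinyanghuo and 0.410 for PTK2B with Gusuibu (log2 fold change 0.83). With the well number as a block over all sets, the difference of effects between Gusuibu and Roucongrong passed the threshold for PTK2B (1.5, edgeR adjusted p = 0.00112) and ITGB1 (-0.59, adjusted p = 0.0292), as did that of ITGB1 between Yinyanghuo and Roucongrong (-0.57, adjusted p = 0.0462).

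Leaving out 1 well at a time, the values ranged from -0.27 to 0.035 for ITGAV, -0.52 to 0.10 for PTK2 and -1.05 to 0.23 for PTK2B with Roucongrong, with 1 to 8 pathway genes and 24 to 54 genes called. With Yinyanghuo they ranged from -1.49 to -0.48 for PTK2 and -0.018 to 1.04 for PTK2B, with 1 to 3 members and 9 to 16 pathway genes called; PTK2B was called without DMSO well 14 (0.87). With Gusuibu, PTK2B ranged from 0.74 to 1.55, with 0 to 1 members called. The genes with a different effect numbered 8 to 32 for Yinyanghuo against Roucongrong, 10 to 25 for Yinyanghuo against Gusuibu and 6 to 31 for Gusuibu against Roucongrong. The difference of effects ranged from -0.19 to 0.19 for ITGB1 between Yinyanghuo and Gusuibu and from -0.14 to 0.46 for PTK2 between Gusuibu and Roucongrong, and the PTK2B/PTK2 ratio with Roucongrong from -1.10 to 0.74. Both kinases had few reads: PTK2 had 3 to 43 reads a well in the Yinyanghuo set and PTK2B 8 to 94 in the Gusuibu set. Whether depth sets these ranges was not tested.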

Other observations

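Among the 48 DMSO wells, with log2 CPM centred within each set, the integrin subunits went together (r = 0.40 between ITGAV and ITGB1) and PTK2B went opposite to both (r = -0.39 with ITGAV and -0.36 with ITGB1). PTK2 and PTK2B had r = -0.14. These values are descriptions. Within single sets of 16 wells, none of the 18 relations between members passed Benjamini-Hochberg adjustment of the permutation p-values (lowest adjusted p = 0.0682, for ITGB1 and PTK2 in the Yinyanghuo set).

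The DMSO well with the highest PTK2B level had the number 14 in each of the 3 sets, at 2035 CPM for Roucongrong, 2813 CPM for Yinyanghuo and 1495 CPM for Gusuibu. This was noticed after the values had been seen, and what the number stands for is not stated in the labels. Over 216 genes, Gusuibu well 2 and Yinyanghuo well 2, each the highest of its herb in PTK2B, correlated best with DMSO well 14 of their set. So did Roucongrong well 1, which had 485 CPM of PTK2B and was not the highest of its herb. The part of this likeness in the result for PTK2B was not tested. Between wells of the same number in 2 sets, PTK2B had r of 0.31 to 0.45 and rho of 0.15 to 0.40, of which none passed adjustment over 12 relations (lowest adjusted permutation p = 0.629), and without the 2 wells farthest from the median r was 0.07 to 0.10. The mean r between sets was 0.39 for PTK2B, the 29th of 216 genes, where the median gene had 0.12, and it was below 0 for the other members.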
